A study of Mus musculus with 6 samples.

Results

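The genes described here are the 3 TAM receptors, *Tyro3*, *Axl* and *Mertk*, and their 2 main ligands, *Gas6* and *Pros1*. They were measured in RNA pulled down from the medial amygdala (MeA) of female mice with and without E2, by a method aimed at *Kiss1* cells. They were taken by gene symbol from the table of expression values, in which all 5 were listed among 13886 protein-coding genes, and all 5 had therefore passed the filter on low values. The set was chosen by a measured value, the log2 CPM difference of *Tyro3* between E2 and OVX libraries, which was known beforehand. What these genes did with E2 is therefore given as a description: counts past a threshold are printed beside the share of all genes, and no p-value is given for them.

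The mice were KissCre+/Rpl22HA+/+ (KissRibo) females, in which Cre is made from *Kiss1* and switches on an HA-tagged ribosomal protein, so that ribosomes of *Kiss1* cells can be pulled down with their mRNA (IP). In every female the ovaries were removed (OVX) at 8 weeks of age, followed by 4 days of E2 and 7 days without it. The E2 group then had an E2 capsule for 5 days and the OVX group had none. There were 3 libraries per group, each from a pool of medial amygdala punches of 4 mice, and no IP from Cre-negative mice was analysed here, so that RNA carried over from other cells was not subtracted.

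TAM receptors are receptor tyrosine kinases that see dying cells and cell debris indirectly. GAS6 and protein S, the product of *Pros1*, carry a vitamin K-dependent Gla domain that binds phosphatidylserine exposed on a membrane. Their other end binds and activates TAM receptors, though not every ligand activates every receptor. In the brain TYRO3 is known mainly from neurons, whereas AXL and MERTK are best known from microglia, astrocytes and vascular cells, where they drive engulfment and restrain interferon and cytokine responses.

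Values are log2 CPM, read counts of a gene divided by the scaled library size, on a log2 scale. Scaled library sizes ran from 28.1M to 34.2M in OVX and from 30.3M to 34.0M in E2 libraries, and correlations between libraries from 0.977 to 0.989. *Kiss1* (ENSMUSG00000115958) was 1.75 ± 0.59 in OVX and 3.66 ± 0.19 in E2 libraries (SD, n = 3 each). A second entry of the gene (ENSMUSG00000116158) was -2.12 ± 3.22 in OVX, with replicate 1 at -5.82, and 2.93 ± 0.27 in E2 libraries. Markers of other cells were present at clear levels. The 12 microglial markers summed to between 191 and 244 CPM over the 6 libraries, the 8 astrocyte markers to between 1400 and 1814 CPM, and the 6 pan-neuronal markers to between 4211 and 4624 CPM. *Snap25*, a synaptic fusion protein, and *Tubb3*, a neuronal tubulin, were the highest of the neuronal list per kb of transcript, and *Gfap* and the glutamate transporter *Slc1a2* of the astrocyte list. Per kb, the complement gene *C1qb* was among the highest of the microglial list, and the myelin gene *Mbp* was the highest of the oligodendrocyte list.

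Since the treatment was an estrogen, the promoters were searched for the palindrome bound by estrogen receptors and for simpler motifs. RefSeq promoter windows of the GRCm38.p6 assembly, 300 bases around 1 start per gene, were found for 5 of 5 genes. Those of *Tyro3* (chr2:119799264-119799563, plus strand), *Mertk* (chr2:128698665-128698964, plus strand) and *Gas6* (chr8:13494486-13494785, minus strand) are shown, *Tyro3* because its groups stood apart, *Gas6* as the highest ligand, and *Mertk* and *Gas6* as the windows with a half-site. Sequences run 5′ to 3′, and capitals mark GGGCGG (a GC box) and GGTCA (an estrogen response half-site) on either strand, so that CCGCCC and TGACC are capitals as well, and neighbouring GC boxes may share letters.
Tyro3: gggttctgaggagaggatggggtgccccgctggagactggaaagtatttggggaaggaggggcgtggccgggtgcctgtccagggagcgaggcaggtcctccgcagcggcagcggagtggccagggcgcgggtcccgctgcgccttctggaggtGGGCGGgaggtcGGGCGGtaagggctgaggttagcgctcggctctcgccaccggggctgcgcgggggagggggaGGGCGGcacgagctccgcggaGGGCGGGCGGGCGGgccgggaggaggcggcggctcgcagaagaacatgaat
Mertk: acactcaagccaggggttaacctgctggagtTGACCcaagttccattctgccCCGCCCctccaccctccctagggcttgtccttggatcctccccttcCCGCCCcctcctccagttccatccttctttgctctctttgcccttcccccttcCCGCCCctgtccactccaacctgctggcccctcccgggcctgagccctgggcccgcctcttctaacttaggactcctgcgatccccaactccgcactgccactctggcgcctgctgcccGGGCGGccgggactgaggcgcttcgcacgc
Gas6: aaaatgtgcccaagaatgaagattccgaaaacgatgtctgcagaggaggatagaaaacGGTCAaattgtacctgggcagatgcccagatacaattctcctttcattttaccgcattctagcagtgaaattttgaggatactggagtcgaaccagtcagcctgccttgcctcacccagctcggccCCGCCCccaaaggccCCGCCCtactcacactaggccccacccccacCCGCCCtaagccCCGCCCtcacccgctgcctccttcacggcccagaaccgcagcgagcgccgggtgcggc
The *Tyro3* window was the richest in G and C of the 5, at 73.3% with 31 CpG and 6 GC boxes, beside medians of 52.7% and 7 CpG over 32851 windows of the same length. GC boxes numbered 4 in *Mertk*, 2 in *Axl*, 4 in *Gas6* and 5 in *Pros1*, and at least 1 was present in 35.7% of all windows. The *Tyro3* window lies inside the gene interval of the annotation, at a later start, and bases around the first annotated start were not searched. The full palindrome GGTCANNNTGACC was in 0 of the 5 windows and in 0.0700% of all windows. Its half-site GGTCA was in the *Mertk* and *Gas6* windows and in 40.5% of all windows, and TATAAA was in 0 of the 5 and in 13.6% of all.

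The receptor RNA of these IP samples was mostly *Tyro3*. *Tyro3* (ENSMUSG00000027298, chr2:119797733-119818104 of GRCm38, plus strand, 20 exons in its longest transcript) read 7.31, 7.25 and 7.07 log2 CPM in OVX replicates 1, 2 and 3, and 6.78, 6.80 and 6.93 in E2 replicates 1, 2 and 3. *Axl* (ENSMUSG00000002602, chr7:25757273-25788705, minus strand, 20 exons) read 4.48, 4.46 and 4.18 in OVX and 4.58, 4.19 and 4.41 in E2 libraries. *Mertk* (ENSMUSG00000014361, chr2:128698956-128802894, plus strand, 19 exons) read 4.40, 4.46 and 4.17 in OVX and 4.35, 4.45 and 4.65 in E2 libraries. The 3 OVX libraries were the 3 highest for *Tyro3*, whereas the groups overlapped for *Axl* and *Mertk*. Counts rebuilt from these values were 3320 to 5202 per library for *Tyro3*, 508 to 749 for *Axl* and 505 to 814 for *Mertk*.

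**Figure D1:**
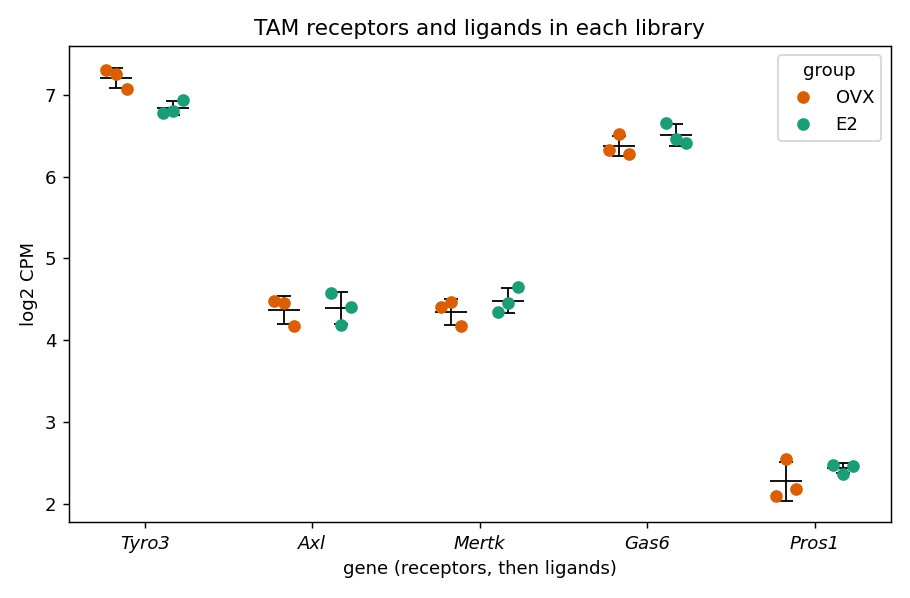
Expression of the 5 TAM genes in log2 CPM (vertical axis) by gene (horizontal axis), with 1 point per library, orange for OVX and green for E2, and a bar for the mean and SD of each group (n = 3). *Tyro3* is the only gene of the 5 whose OVX and E2 points are apart, at 7.07 to 7.31 against 6.78 to 6.93.

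Of the ligands, *Gas6* was by far the higher. *Gas6* (ENSMUSG00000031451, chr8:13465374-13494490, minus strand, 15 exons) read 6.33, 6.52 and 6.28 log2 CPM in OVX and 6.66, 6.47 and 6.41 in E2 libraries. *Pros1* (ENSMUSG00000022912, chr16:62854307-62929346, plus strand, 15 exons) read 2.10, 2.55 and 2.18 in OVX and 2.48, 2.37 and 2.47 in E2 libraries. The groups overlapped for both, and the rebuilt counts were 2182 to 3129 for *Gas6* and 121 to 199 for *Pros1*. *Gas6* shares 34 exonic bases with *Tmem255b* on the other strand, and reads there cannot be assigned because the library kit did not keep strand. The other 4 genes share no exonic base with another gene in the annotation used.

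Levels were compared between genes per kilobase of the longest transcript. *Gas6* averaged 5.09 log2 CPM per kb over the 6 libraries, *Tyro3* 4.86, *Mertk* 2.31, *Axl* 2.29 and *Pros1* 0.63. *Gas6* and *Tyro3* did not keep 1 order, as *Gas6* was higher in 5 of 6 libraries, with differences of -0.17 to 0.69. *Tyro3* was above *Mertk* by 2.23 to 2.85 in all 6 libraries. *Mertk* and *Axl* were not distinguishable, with *Mertk* higher in 2 of 6 and differences of -0.25 to 0.26. *Axl* was above *Pros1* by 1.45 to 2.01 in all 6. Among all genes with a length, 83.1% were lower per kb than *Tyro3*, 85.7% lower than *Gas6*, 38.2% lower than *Mertk*, 37.9% lower than *Axl* and 16.7% lower than *Pros1*. With the mean transcript length in place of the longest, *Tyro3* (6.14) came above *Gas6* (5.09), and *Axl* above *Mertk*.

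As a share of the summed receptor CPM per kb, *Tyro3* made up 77.8%, 76.9% and 78.1% in OVX replicates 1 to 3 and 70.4%, 72.7% and 71.6% in E2 replicates 1 to 3. *Mertk* averaged 11.1% ± 0.42 in OVX and 14.6% ± 0.91 in E2 libraries, and *Axl* 11.4% ± 0.29 and 13.9% ± 1.94 (SD, n = 3 each). These shares come from the same values as the E2 differences and are no further evidence of them. The summed receptor level was 42.8 ± 3.82 CPM per kb in OVX and 35.8 ± 2.08 in E2 libraries, and the summed ligand level 34.1 ± 3.13 and 37.5 ± 3.31. *Gas6* was 95.2% to 96.0% of the ligand sum in every library. The receptor sum divided by the ligand sum was 1.39, 1.18 and 1.21 in OVX and 0.847, 0.947 and 1.09 in E2 libraries. The level of this ratio depends on the length used, so which sum was larger is not settled. *Tyro3* was 4.86 log2 CPM per kb with the longest transcript, 6.14 with the mean length and 4.39 with merged exons. *Gas6* was 5.09 with each of these lengths. The receptor sum and this ratio hold the same *Tyro3* values, and are no further evidence of an E2 difference either.

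**Figure D2:**
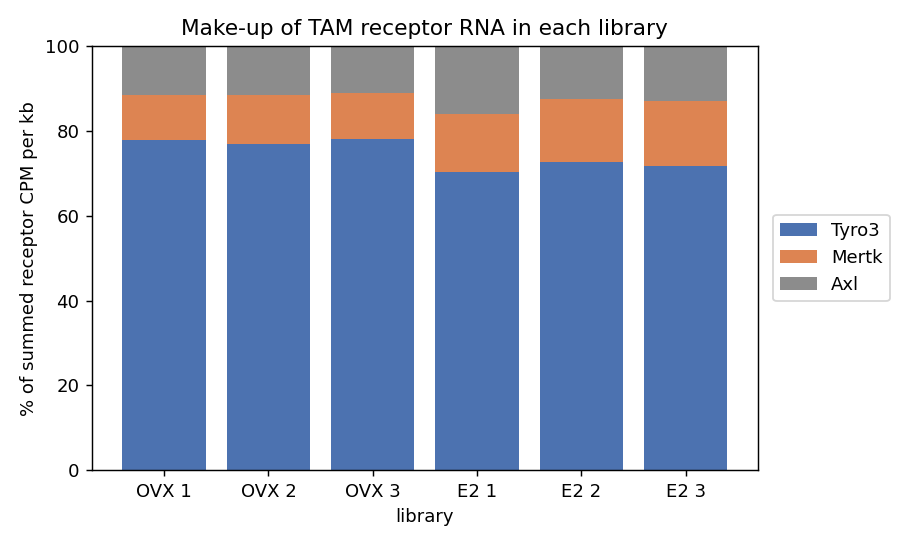
Make-up of TAM receptor RNA, as % of the summed CPM per kb of the 3 receptors (vertical axis), in each of the 6 libraries (horizontal axis), with blue for *Tyro3*, orange for *Mertk* and grey for *Axl*. *Tyro3* takes 76.9% to 78.1% of each OVX bar and 70.4% to 72.7% of each E2 bar.

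*Tyro3* was also among the highest of all receptor tyrosine kinases in these samples. Of a list of 58 such genes, 50 were in the table. Per kb, *Lmtk3* (6.41 log2 CPM per kb) and *Aatk* (5.92), members of the lemur kinase family, and *Ntrk2* (5.82), the BDNF receptor, were highest over the 6 libraries. They were followed by *Fgfr1* (4.98), a fibroblast growth factor receptor, *Tyro3* (4.86, place 5 of 50) and *Ephb6* (4.39), an ephrin receptor without kinase activity. *Tyro3* was above *Ephb6* in all 6 libraries, by 0.21 to 0.75, and below *Ntrk2* in all 6, by 0.72 to 1.24. *Tyro3* and *Fgfr1* changed places: *Tyro3* was place 4 in each OVX library and place 5 in each E2 library, where *Fgfr1* was place 4. *Mertk* and *Axl* were at places 23 and 24, between *Insr* (2.46), the insulin receptor, and *Igf1r* (2.26), the IGF1 receptor, and neither stood apart from these neighbours in every library.

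**Figure D3:**
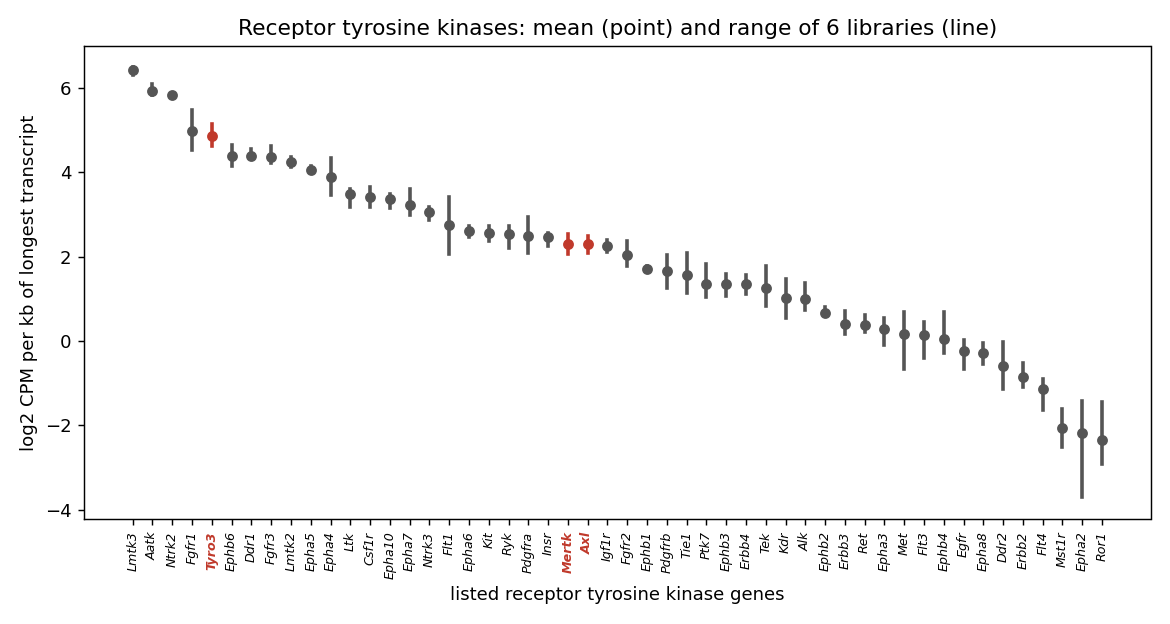
Levels of the 50 receptor tyrosine kinase genes that were listed (horizontal axis, in order of their mean) in log2 CPM per kb of the longest transcript (vertical axis), with a point for the mean and a line for the range of 6 libraries and the TAM receptors in red. *Tyro3* (4.86) stands in place 5, while *Mertk* (2.31) and *Axl* (2.29) stand side by side in the middle of the list.

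With E2, *Tyro3* averaged 6.84 ± 0.08 log2 CPM against 7.21 ± 0.13 in OVX (SD, n = 3 each), a difference of -0.37 (SE 0.07) or 0.773 of the OVX level. In linear units this was 114 CPM against 148 CPM. The lowest OVX library was 0.14 above the highest E2 library, and the *Tyro3* difference was larger in size than that of 92.2% of all genes. The other 4 genes had smaller differences: *Axl* 0.02 (SE 0.13), *Mertk* 0.14 (SE 0.12), *Gas6* 0.13 (SE 0.08) and *Pros1* 0.16 (SE 0.21), and their groups overlapped. In such pools, fewer cells that make a gene and less of its RNA per cell cannot be told apart.

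By limma across all 13886 genes, 0 of the 5 genes passed an adjusted p under 0.05, a threshold passed by 40 genes or 0.288% of all genes, and 1 of 5 (*Tyro3*) had an unadjusted p under 0.05, as did 8.56% of all genes. Groups did not overlap, with E2 below OVX, for 1 of 5 (*Tyro3*), beside 6.82% of all genes (13.7% in either direction). In 15 other settings the count past the adjusted threshold was 0 in 7 and 1 (*Tyro3*) in 8, among them voom weights on rebuilt counts (0.331% of all genes called) and the fits without OVX replicate 3 or without E2 replicate 3. Nothing is read from any of these counts, since the choice of the genes used this contrast. The *Tyro3* difference ran from -0.44 to -0.32 over the 15 settings. Whether *Tyro3* passed the threshold depended on the fit used. The paper, by its own voom comparison, listed *Tyro3* among the genes that differed significantly between the groups, with the higher level in OVX.

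Of the non-TAM kinases, 1 was higher and 1 lower with E2 among 47 listed, where 0.23% of all genes passed higher and 0.0576% lower. *Fgfr1* rose from 6.96 ± 0.08 to 7.66 ± 0.16 log2 CPM (difference 0.70, SE 0.08, limma adjusted p = 0.000948). *Epha4*, an ephrin receptor of axon guidance and synapses, fell from 6.81 ± 0.18 to 6.30 ± 0.16 (difference -0.50, SE 0.10, limma adjusted p = 0.0469). *Epha4* was close to the threshold, and both calls rest on the fit with the mean-variance trend, without which 0 genes passed. The median difference of the 47 was 0.00, as was that of all genes.

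Markers of forebrain excitatory neurons, taken as a sum, stood in nearly the same order over the libraries as *Tyro3*. Their 6 genes summed to 1137, 957 and 880 CPM in OVX replicates 1 to 3 and to 725, 668 and 871 CPM in E2 replicates 1 to 3, and *Tyro3* was 158, 152 and 134 CPM in OVX and 110, 111 and 122 CPM in E2 libraries. The E2 sums lay below the OVX sums, narrowly for E2 replicate 3. All 6 markers had a negative difference, 5 of them at an unadjusted p under 0.05 (603 of the 13886 genes were lower at that level) and 0 at an adjusted one, with a median of -0.48 beside 0.00 for all genes. *Slc17a7*, the vesicular glutamate transporter of cortical-type neurons, differed by -0.42 (SE 0.11, limma adjusted p = 0.174), and *Tbr1*, a transcription factor of such neurons, by -0.05 (SE 0.07, adjusted p = 0.915). *Slc17a7* made up most of every sum, so the order of the sums is mainly its own. It read 9.91, 9.64 and 9.501 log2 CPM in OVX and 9.22, 9.07 and 9.495 in E2 replicates 1 to 3. *Tbr1* did not keep that order, at 6.07, 6.18 and 6.26 in OVX and 6.09, 6.19 and 6.09 in E2 libraries. Of the 6, 1 (*Slc17a7*) had no overlap between groups, with E2 below OVX, beside 6.82% of all genes. The part of forebrain excitatory neurons in the *Tyro3* difference was not tested.

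**Figure D4:**
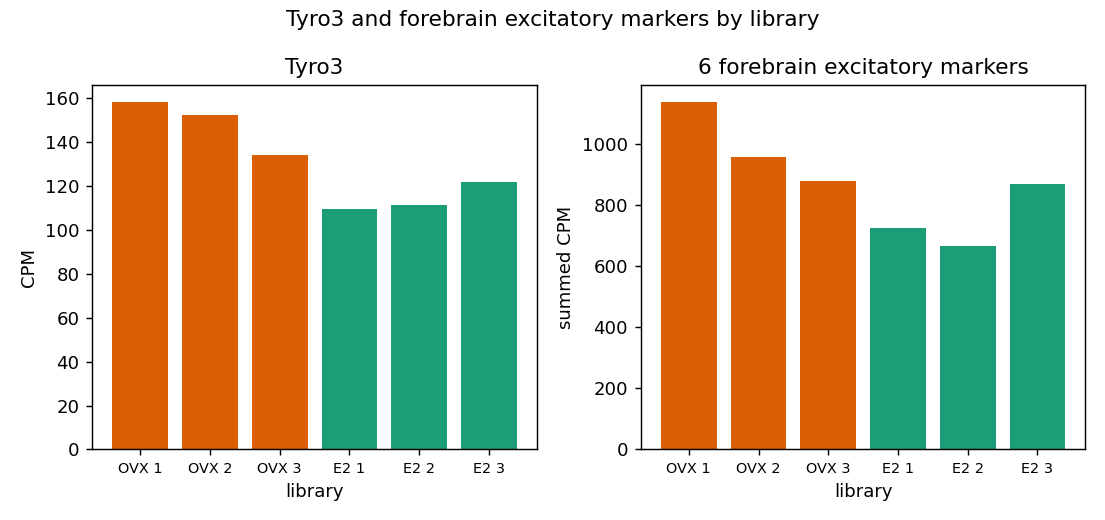
*Tyro3* in CPM (left panel, vertical axis) and the summed CPM of 6 forebrain excitatory neuron markers (right panel, vertical axis) in each library (horizontal axes), orange for OVX and green for E2, with bars starting at 0. In both panels the 3 OVX bars are higher than the 3 E2 bars, and E2 replicate 3 is the highest of the E2 bars. Most of each bar in the right panel is *Slc17a7*.

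The sums of the other marker lists overlapped between the groups. The 12 microglial markers summed to 199 to 244 CPM in OVX and 191 to 214 CPM in E2 libraries, the 8 astrocyte markers to 1400 to 1785 and 1503 to 1814 CPM, the 7 oligodendrocyte markers to 1587 to 2233 and 1735 to 2451 CPM, and the 3 inhibitory neuron markers (highest per kb *Gad1* and *Slc32a1*) to 358 to 434 and 423 to 509 CPM. The 4 oligodendrocyte precursor markers (highest per kb *Olig1* and *Olig2*) summed to 115 to 136 and 134 to 172 CPM. The 8 endothelial and mural markers (highest per kb *Rgs5* and *Vtn*) summed to 164 to 310 and 195 to 253 CPM. Of the 6 fibroblast markers 5 were listed, with *Dcn* the highest per kb, summing to 32.3 to 53.1 and 42.9 to 59.8 CPM. Of the 5, 1 passed as higher with E2, the collagen gene *Col1a1* (difference 1.18, SE 0.22, limma adjusted p = 0.0469), beside 0.23% of all genes. The list did not rise as a whole, as the median difference of the 5 was 0.06 and the lowest -0.17. All 4 precursor markers were positive with E2, 3 of them at an unadjusted p under 0.05, all 8 astrocyte markers, 2 of them at that level, and all 3 inhibitory markers, 1 of them at that level, where 7089 of the 13886 genes were positive and 585 higher at that level. Named after their values were seen, *Pdgfra*, the PDGF receptor of precursors, differed by 0.54 (SE 0.11, limma adjusted p = 0.0838), and *Gad2*, an enzyme of GABA synthesis, by 0.31 (SE 0.09, adjusted p = 0.251), both with all E2 libraries above OVX. Of the rest, 6 of 7 oligodendrocyte, 7 of 8 endothelial and mural, 4 of 5 fibroblast and 4 of 12 microglial markers were positive. How much of the *Axl*, *Mertk*, *Gas6* and *Pros1* signal came from such cells was not tested.

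The rest of the pathway was followed with a list of 85 genes, of which 81 were in the table, all but *Tulp1*, *Twist1*, *Havcr1* and *Timd4*. By limma 0 of 81 passed the threshold in either direction, beside 0.288% of all genes. At an unadjusted p under 0.05 4 were higher and 7 lower, where 585 of the 13886 genes were higher and 603 lower. Differences were positive for 31 and negative for 50, beside 7089 and 6797 of all genes, with a median of -0.02 beside 0.00 for all genes. Groups did not overlap for 5 genes with E2 above OVX, as for 6.85% of all genes, and for 10 with E2 below OVX, beside 6.82% of all genes.

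Both ligands need vitamin K-dependent carboxylation to bind phosphatidylserine, and all 5 genes of that step were listed. *Vkorc1l1*, a vitamin K reductase, was the highest at 3.84 log2 CPM per kb and differed by 0.06 (SE 0.08) with E2. Its relative *Vkorc1*, which shares 401 exonic bases with *Gm21974*, differed by -0.22 (SE 0.16). The limma adjusted p was 0.763 or more for all 5.

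Other bridging or ligand proteins, grouped here with a complement gene, were listed for 5 of 6 genes. *Mfge8*, which links phosphatidylserine to integrins, was the highest of them at 5.27 log2 CPM per kb, close to the 5.09 of *Gas6*, and differed by -0.06 (SE 0.11, limma adjusted p = 0.936) with E2. *C4b*, a complement component, differed by 0.29 (SE 0.15, adjusted p = 0.617). Genes of receptor cleavage were all listed, 5 of 5. *Ncstn*, a subunit of gamma-secretase, differed by -0.11 (SE 0.07, adjusted p = 0.715) with no overlap between groups, and *Adam17*, a protease that sheds TAM receptors from the surface, by 0.21 (SE 0.15, adjusted p = 0.768). *Ncstn* shares 195 exonic bases with *Copa*, and *Adam17* shares 311 with *Iah1*.

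Among 27 adaptors and effectors of the receptors, the closest to the threshold was *Elmo1*, which acts with DOCK proteins to switch on RAC during engulfment. *Elmo1* was 7.13 ± 0.04 log2 CPM in OVX and 7.47 ± 0.16 in E2 libraries (difference 0.35, SE 0.07, limma adjusted p = 0.0942), with all 3 E2 libraries above OVX. It passed the threshold without E2 replicate 3 (difference 0.43, adjusted p = 0.0127), and over its 15 alternatives the adjusted p ran from 0.0127 to 0.582. It shares 403 exonic bases with the antisense gene *Gm32036*. *Vav2*, an activator of RAC, differed by 0.45 (SE 0.16, adjusted p = 0.422). *Mapk3*, which encodes the kinase ERK1, was the highest at 7.13 log2 CPM per kb and differed by -0.09 (SE 0.05, adjusted p = 0.718).

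TAM receptors restrain interferon responses through the type I interferon receptor and SOCS proteins, and 9 of 10 genes of this arm were listed. *Jak1*, a kinase of that receptor, was the highest at 5.45 log2 CPM per kb, with a difference of 0.00 (SE 0.06). Its partner kinase *Tyk2* differed by -0.21 (SE 0.12). The limma adjusted p was 0.698 or more for all 9.

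Exposure of phosphatidylserine, the signal that the ligands read, was covered by 13 genes. *Tmem30a*, a subunit of the flippases that keep phosphatidylserine inside, was the highest at 6.71 log2 CPM per kb and differed by 0.04 (SE 0.05, limma adjusted p = 0.915). The flippase *Atp11b* differed by 0.16 (SE 0.06, adjusted p = 0.484) and the scramblase *Xkr8*, which exposes phosphatidylserine in dying cells, by 0.22 (SE 0.14, adjusted p = 0.715), both with E2 above OVX in all libraries.

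Of 19 genes for other phosphatidylserine receptors and engulfment, 17 were listed, and 13 of them had a negative difference. *Adgrb2*, an adhesion receptor related to the engulfment receptor BAI1, was the highest at 6.61 log2 CPM per kb and differed by -0.14 (SE 0.06, limma adjusted p = 0.576). The integrin subunit gene *Itgb3* was 2.10 ± 0.19 log2 CPM in OVX and 1.45 ± 0.32 in E2 libraries (difference -0.65, SE 0.26, adjusted p = 0.502), without overlap. Its partner *Itgav* differed by 0.25 (SE 0.11, adjusted p = 0.537) and shares 634 exonic bases with *Gm13684*.

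**Figure D5:**
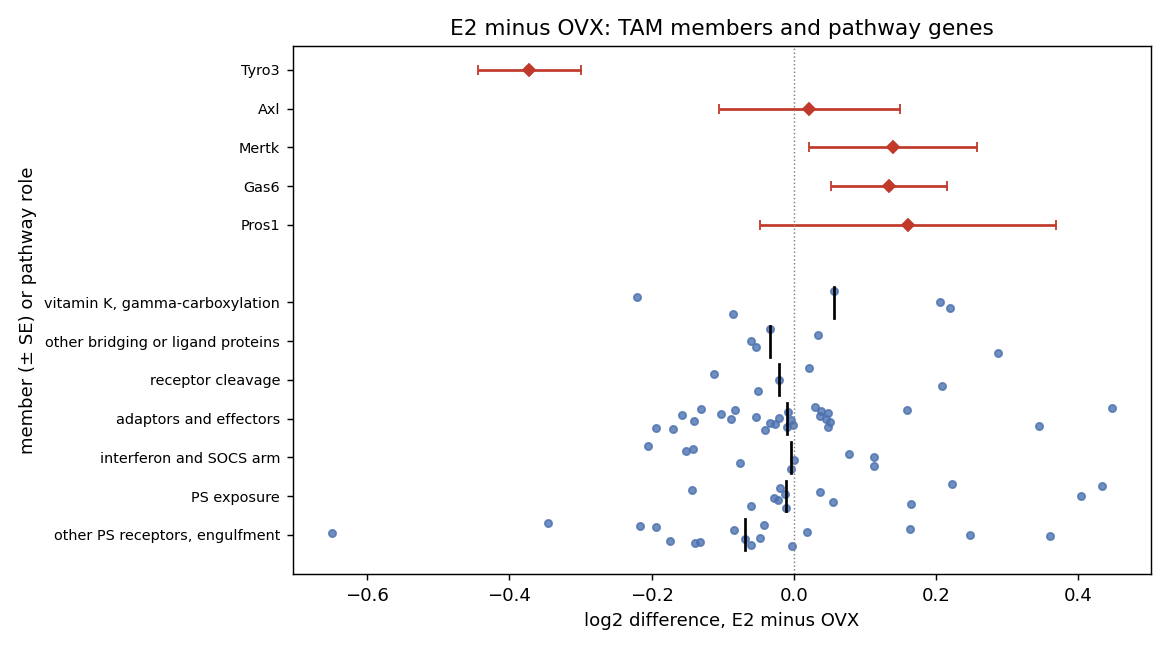
Log2 difference of E2 minus OVX (horizontal axis) for the 5 TAM genes (red diamonds, with the SE as a bar) and for the 81 listed genes of the pathway by role (blue points, with a black bar at the median of the role), where PS is phosphatidylserine. *Tyro3* is at -0.37, the other 4 TAM genes lie between 0.02 and 0.16, and the medians of the 7 roles lie between -0.07 and 0.06.

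Over the 6 libraries, the genes with the pattern most like that of *Tyro3* were *Pvr* (Pearson r = 0.996), *Hrh3* (0.993) and *Sbf1* (0.991), each with E2 below OVX in all libraries. For *Axl* they were *Sox12* and *Tdrd6* (both 0.996), for *Mertk* *Abcc10* (0.987), *Ccdc88a* (0.984) and *Zgpat* (0.983), for *Gas6* *Acadsb* (0.987), *Mal* (0.986) and *Hecw2* (0.985), and for *Pros1* *Phyhd1* (0.994), *Pecam1* (0.988) and *Trabd2b* (0.985). These values describe 6 points, which share library depth and cell make-up over all genes, and carry no test. Genes picked for likeness to *Tyro3* would mostly share its separation of the groups. Within the 5 TAM genes the highest r was that of *Gas6* with *Pros1* (0.775), and *Tyro3* and *Gas6* had an r of -0.50. *Pecam1* is also an endothelial marker. The endothelial and mural sum was 190, 310 and 164 CPM in OVX and 248, 195 and 253 CPM in E2 libraries, and *Pros1* was 4.30, 5.84 and 4.54 CPM and 5.57, 5.16 and 5.54 CPM in the same order. The part of vascular cells in the *Pros1* values was not tested.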

How the data were processed

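RNA-seq was run on MeA IP RNA of 3 OVX and 3 E2 libraries, and groups and replicate numbers are those of the labels. The values used were the deposited log2 CPM, which the authors made with FastQC 0.11.8, Trimmomatic 0.38, STAR 2.6.0a (versions from the submitters' processing notes), RSEM on GRCm38, TMM scaling and voom, limited to protein-coding genes. The authors' table of comparisons (log2 fold changes and p-values) was not used. Each replicate was a pool of mice of its own.

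E2 was compared with OVX in limma 3.58.1 (R 4.3.3) with a mean-variance trend and no term but treatment. The p-values were 2-sided and adjusted over 13886 genes by the Benjamini-Hochberg method, with a threshold of 0.05. The prior degrees of freedom were 9.55 and the median SE 0.107. The smallest p of an exact permutation of 3 against 3 libraries is 0.1, so none was run. Library sizes and counts were rebuilt by taking the lowest value of a library as a count of 0 plus 0.5, so depth is known only as far as that holds.

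Positions, transcript lengths and shared exons came from GENCODE mouse release M21 (GRCm38), and promoters from RefSeq (GRCm38.p6).

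Named were, for each role of the pathway list, the gene highest per kb and the 2 with the smallest p; of the kinases, the 3 highest, those past the threshold and the neighbours of the receptors; of each marker list, the 2 highest and those past the threshold; and the 3 genes most like each member. A few of these genes are not reported here. The members and lists were chosen with earlier results of these data known. The alternatives were no trend, voom weights, robust empirical Bayes, median centring, quantile normalization, 2 filters on low values, log2(CPM + 1), a replicate block, other lengths and leaving out each library.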

Additional observations from a re-analysis of the deposited data

How the results depend on the processing

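The signs of the differences were kept in 73 of 75 values of the 5 TAM genes over 15 alternatives, and both exceptions were *Axl*, without OVX replicate 3 and without E2 replicate 1 (lowest -0.07). *Tyro3*, with 0 of 5 genes past the threshold at first, made the count 1 with voom weights, robust empirical Bayes, median centring, either filter on low values, log2(CPM + 1), and without OVX replicate 3 or E2 replicate 3 (leaving out 1 library, range 0 to 1). In those settings 0.266% to 0.475% of the genes tested passed. Nothing is read from the *Tyro3* count, since the choice of the genes used this contrast. The 40 genes past the threshold became 0 without the trend, where limma gave 1017 at an unadjusted p under 0.05, and 20 to 66 when 1 library was left out (21 without OVX replicate 1, 26 and 20 without E2 replicates 1 and 2, 66 without E2 replicate 3). Pathway genes past the threshold were 0 to 1 with 1 library left out. The order of the 5 levels kept 1 of 5 places with the mean transcript length and 3 to 5 with 1 library left out, *Axl* and *Mertk* changing places without E2 replicate 2 or 3. *Tyro3* was place 5 among the kinases, and 4 without E2 replicate 2. The places of *Mertk* and *Axl* moved with the length used, to 26 and 22 with the mean transcript length and to 17 and 19 with merged exons. Replicate numbers were not taken to pair libraries, since same-numbered libraries had correlated deviations of -0.02, -0.12 and -0.08. The replicate block gave 35 genes past the threshold (30 higher, 5 lower, against 32 and 8 without it), 0 of the 5 TAM genes and 0 pathway genes. Depth limits *Pros1* most, at 121 to 199 rebuilt counts per library.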
